A study of Rattus norvegicus with 48 samples.

Results

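Collagen genes were followed in the lungs of 48 male Sprague-Dawley rats by sequencing of polyadenylated RNA. A gene belonged to the set when its name was Col, a number, a and a number, and when its mean over the 48 libraries was at least 0.5 CPM (counts scaled to a common library total, with TMM factors). Of 32285 gene identifiers, 44 had such a name and 37 of them, carrying 36 names, reached that mean. The exposed rats had breathed, in whole-body chambers, 30 mg/m3 of fracking sand dust (the mineral dust of hydraulic fracturing sand) together with 1 mg/m3 of diesel particles, for 6 hours a day on 4 days, and the air rats had breathed filtered air. Lungs were taken 1, 7 or 27 days after exposure, from 8 exposed and 8 air rats at each day. All rats were healthy males of 1 outbred stock, and a piece of whole lung was used, so that every level is a mixture over the cell types of that piece. A lower level can come from fewer cells of a type or from less RNA per cell, and these cannot be told apart here.

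Collagens are triple helices of 3 chains, and each gene encodes 1 kind of chain. Fibrillar collagens such as types I, III and V form the tension-bearing fibres of the lung's airways, vessels and alveolar septa, and are made mainly by fibroblasts. Basement membrane collagens, above all type IV, form the sheets under epithelium and endothelium, where the air-blood barrier is thinnest. The remaining types coat fibrils, form beaded filaments or span the cell membrane. Fibrillar collagen genes are widely measured in lungs exposed to mineral dust, because silica can lead to scarring.

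The set held 10 fibrillar members, 7 basement membrane members and 20 others. Among fibrillar members, Col1a1 and Col1a2 encode the chains of type I, the main load-bearing collagen, and Col3a1 encodes type III, which makes finer fibres in distensible tissue. Col5a1, Col5a2 and Col5a3 encode type V, which nucleates fibrils and limits their width, Col11a1 and Col11a2 encode the related type XI, and Col24a1 and Col27a1 are minor fibrillar genes. The basement membrane members were Col4a1, Col4a2, Col4a4, Col4a5 and Col4a6 of type IV, and Col15a1 and Col18a1 of the basement membrane zone. The others were 6 chains of the beaded filament type VI, 7 collagens that bind to fibrils, the transmembrane Col13a1, Col17a1 and Col23a1, the short-chain network genes Col8a1 and Col8a2, and Col7a1 of the fibrils that anchor epithelium. Col23a1 was listed under 2 identifiers (ENSRNOG00000003349 and ENSRNOG00000046785), between which reads may have been split, and its values are uncertain for that reason.

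The threshold set 7 identifiers aside. Col9a3, at a mean of 0.331 CPM, lay just outside it and Col22a1, at 0.508 CPM, just inside. No identifier was named Col4a3, the remaining type IV gene, so its level is not known here. Col2a1, the fibrillar collagen of cartilage, averaged 0.0743 CPM, and the cartilage proteoglycan gene Acan had no counts in 37 of 48 libraries. Col19a1 and Col22a1 were members but had too few counts to be tested in any pair of groups, and Col11a1 was too low at day 27.

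Summed counts ran from 9445687 to 14400337 per library. In 4 pairs of libraries the counts lay closer together than in the other 164 pairs within a group, at 1.45 to 1.72 times counting noise against at least 2.37. These were exposed libraries 1 and 4 of day 1, exposed libraries 3 and 6 of day 7, air libraries 1 and 4 of day 7, and air libraries 3 and 6 of day 27. Each pair differed by more than counting noise, all 48 libraries were kept, and results that change when the closest pairs are summed are given with that value. One air library of day 7 also stood apart, with 518 CPM over the 5 measured skeletal muscle markers against at most 21.1 CPM in the other libraries. Each title carries its own animal number, and rats shared cages without a label for which, so p-values measure the spread between these libraries.

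The collagen members took up a smaller part of all counts at day 27 than at the earlier days, in exposed and in air lungs alike. At day 1 the members together held a median of 1.41% of counts in exposed and 1.38% in air lungs, and at day 7 they held 1.41% in exposed and 1.39% in air lungs. At day 27 they held 0.844% to 0.984% in exposed lungs, with a median of 0.920%, and 0.777% to 0.971% in air lungs, with a median of 0.860%. Every library of day 27 lay below every library of days 1 and 7, whose lowest value was 1.17%. The fibrillar members held 0.332% in exposed and 0.333% in air lungs at day 27, against 0.626% and 0.587% in exposed and air lungs at day 7, all as medians. For the basement membrane members the day 27 medians were 0.327% in exposed and 0.285% in air lungs, against 0.447% and 0.444% in exposed and air lungs at day 7.

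**Figure D1:**
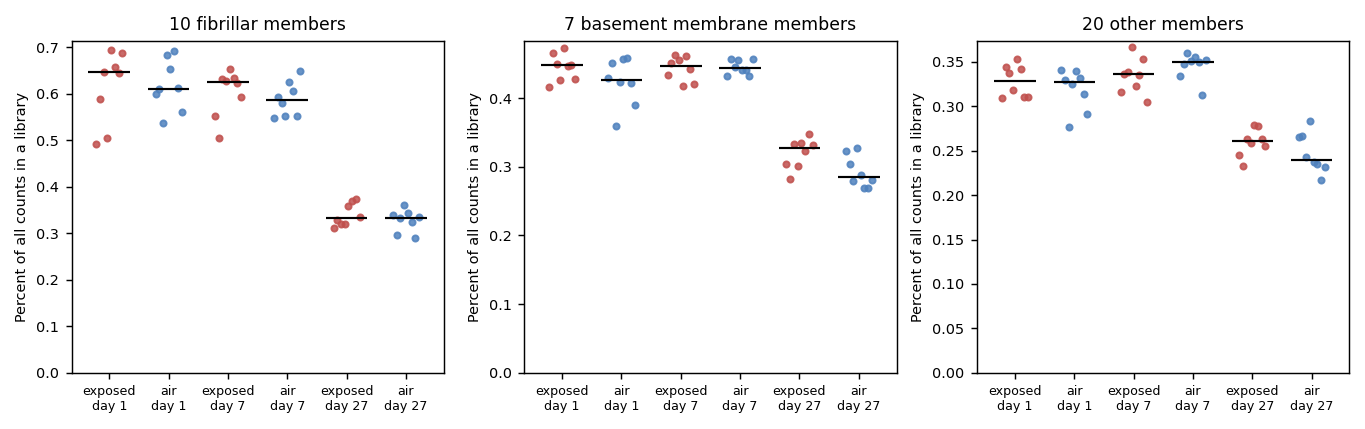
Share of all counts held by the 10 fibrillar, 7 basement membrane and 20 other collagen members in each of 48 libraries (y axis, percent of counts from 0, with its own scale in each panel), by group. Each point is 1 library and each bar the group median; the fibrillar medians of day 27 are 0.332% in exposed and 0.333% in air lungs.

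The comparison at day 1 asked whether collagen expression had moved shortly after the exposure. No collagen passed at day 1. Of 35 members tested, 0 had an adjusted p under 0.05 by edgeR's quasi-likelihood test with Benjamini-Hochberg adjustment over all genes, where 0.0279% of all genes tested passed, and 3 had an unadjusted p under 0.05 (8.67% of all genes). Exposed lungs had 727 to 1163.1 CPM of Col1a1 (median 1051.7) and air lungs 795 to 1241.7 CPM (median 1051.7). These groups overlapped over most of their range, and the fitted log2 difference was -0.05 ± 0.109 (SE throughout unless SD is named; adjusted p = 0.938 by edgeR). Col3a1 stood at -0.02 ± 0.080 on the same scale (adjusted p = 0.971 by edgeR), and Col4a1, a chain of the type IV network present in nearly all basement membranes, at 0.03 ± 0.058 (edgeR adjusted p = 0.920). The fibrillar gene with the smallest p was Col24a1, at 0.27 ± 0.174 on the log2 scale and an edgeR adjusted p of 0.702.

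All 7 basement membrane members had log2 fold changes above 0 at day 1, with a median of 0.10, and none passed. Over the 35 members tested 23 lay above 0, where 50.9% of all genes did. Such genes go together between libraries (Pearson r of 0.87 within groups for Col4a1 and Col4a2), so their signs are not separate observations. Col4a5, a chain of the specialised type IV network of the alveolar and kidney filtration barriers, had 373 to 440 CPM in exposed lungs (median 400.2) and 299 to 410 CPM in air lungs (median 354). The groups overlapped, although each of the 8 exposed libraries exceeded the mean of the air lungs. Its log2 difference was 0.17 ± 0.060 (adjusted p = 0.413 by edgeR). Col4a6, which pairs with Col4a5 in a network found around smooth muscle and some epithelia, stood at 0.19 ± 0.073 (edgeR adjusted p = 0.470). Among the others Col6a3, a chain of the beaded filaments between cells and fibrils, stood at 0.18 ± 0.069 (edgeR adjusted p = 0.468).

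At day 7, too, 0 of 35 members passed by edgeR's quasi-likelihood test, as did 0% of all genes, and 4 members had an unadjusted p under 0.05 (8.47% of all genes). Col1a1 had 695 to 1021.7 CPM in exposed lungs (median 909.8) and 753 to 1053.7 CPM in air lungs (median 911). The groups covered nearly the same range, with a log2 difference of 0.02 ± 0.080 (adjusted p = 0.969 by edgeR). Col3a1 stood at 0.05 ± 0.054 (edgeR adjusted p = 0.819) and Col4a1 at -0.01 ± 0.042 (edgeR adjusted p = 0.975). Col12a1, whose product decorates fibrils in tissue under tension, had the smallest p, with 261.6 to 354 CPM in exposed lungs (median 318) and 299 to 402 CPM in air lungs (median 356). Most of the exposed libraries were lower but the groups overlapped, and its log2 difference was -0.17 ± 0.059 (adjusted p = 0.463 by edgeR). The fibrillar Col5a2 stood at 0.07 ± 0.036 (edgeR adjusted p = 0.594) and the basement membrane Col15a1 at 0.32 ± 0.162 (edgeR adjusted p = 0.609). Among the other basement membrane members Col4a1, Col4a2 and Col4a6 lay below 0, and Col4a4, Col4a5 and Col18a1 above it.

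At day 27, 1 of 34 members tested passed in exposed against air lungs, and it rose: the type IV chain gene Col4a4. Over all genes 5.52% passed, 2.18% higher and 3.33% lower, and 26.7% had an unadjusted p under 0.05. In the collagens 5 members had one, so that neither count stands above that of all genes. Col4a4 had 563 to 764 CPM in exposed lungs (median 701) and 497 to 683 CPM in air lungs (median 584). The groups overlapped, with 7 of 8 exposed libraries above the air mean and 1 below it. Its log2 fold change was 0.24 ± 0.069, a level 18.3% higher (edgeR adjusted p = 0.0456). The call was close to the threshold. It was lost without a filter on low counts (edgeR adjusted p = 0.0565), with the closest pairs of libraries summed (0.0791), and with 1 surrogate variable (0.207). The log2 fold change was 0.24 without a filter and with the pairs summed, and 0.13 with 1 surrogate variable. With 1 library left out it was kept in 4 of 16 fits, those without exposed library 2 or air library 1, 2 or 4, and lost without any other (0.0505 to 0.0970).

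The other type IV genes of day 27 had smaller differences that did not pass. Col4a1 had 1336.2 to 1572 CPM in exposed lungs (median 1474.3) and 1217.8 to 1479.8 CPM in air lungs (median 1340.4). The groups overlapped, with a log2 difference of 0.11 ± 0.049 (adjusted p = 0.162 by edgeR). Col4a5 stood at 0.14 ± 0.071, Col4a6 at 0.12 ± 0.081 and Col4a2 at 0.09 ± 0.061, while Col18a1, the parent gene of the vessel growth inhibitor endostatin, stood at -0.06 ± 0.047, as log2 fold change ± SE. Of the 7 basement membrane members 6 lay above 0, where 48% of all genes did, with a median log2 fold change of 0.12 against -0.01 over all genes. As at day 1, these signs are not separate observations.

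Fibrillar genes did not pass at day 27 either. Col1a1 had 348 to 510.1 CPM in exposed lungs (median 428) and 351 to 501 CPM in air lungs (median 438). The groups covered the same range, with a log2 difference of -0.04 ± 0.082 (adjusted p = 0.806 by edgeR). Col3a1 had 1934.1 to 2353.9 CPM in exposed lungs (median 2115.7) and 1747.1 to 2220.2 CPM in air lungs (median 2065.1). These overlapped as well, at 0.08 ± 0.055 on the log2 scale (adjusted p = 0.385 by edgeR). Col5a1 stood at 0.17 ± 0.068 (edgeR adjusted p = 0.129), and of the other members Col16a1, a fibril-binding collagen, at 0.13 ± 0.052 (edgeR adjusted p = 0.128). At all 3 days 0 members had groups that did not overlap. Over all genes 0.0559% did not overlap and were lower at day 1, 0.0281% at day 7 and 0.218% at day 27, with 0%, 0.014% and 0.268% higher.

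**Figure D2:**
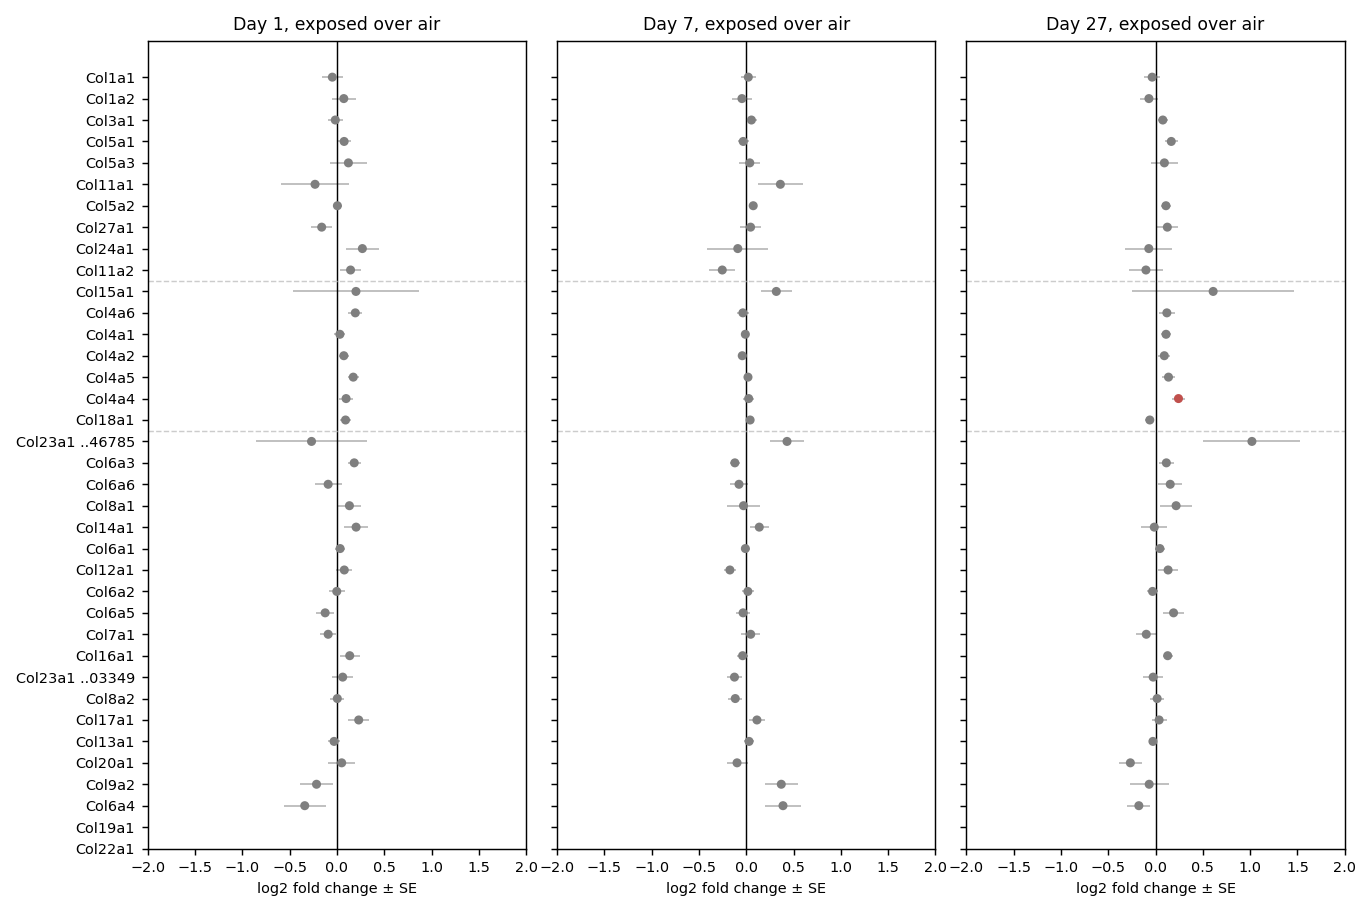
Log2 fold change ± SE of exposed over air lungs for each collagen member at days 1, 7 and 27 (x axis, log2 scale), from edgeR fits of 8 exposed and 8 air libraries per day. Members are grouped as fibrillar, basement membrane and other by the dashed lines; the red point is Col4a4 at day 27 (0.24), grey points did not pass, and rows without a point were not tested.

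Whether the exposure effect on collagens differed between days was tested in 1 fit of all 48 libraries. By edgeR's quasi-likelihood test 0 of 36 members passed for day 7 minus day 1, day 27 minus day 1 and day 27 minus day 7, where 0%, 0.498% and 0.0202% of all genes passed. At an unadjusted p under 0.05 there were 4, 2 and 5 members, where 7.5%, 14.6% and 14.9% of all genes had one. For Col4a4 the exposure effect at day 27 exceeded that at day 7 by 0.22 ± 0.098 on the log2 scale (edgeR adjusted p = 0.285), so the day 27 difference was not shown to be particular to that day.

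The genes that build collagen outside the cell and inside it were followed with the same test. At day 27, 2 of 21 hydroxylation and folding genes were higher in exposed than in air lungs and 1 was lower, where 2.18% of all genes were higher and 3.33% lower. With lists this short, counts of 1 or 2 are not set apart from those shares. P4ha1, a prolyl hydroxylase that stabilises the triple helix, stood at 0.35 on the log2 scale (edgeR adjusted p = 0.0322), and Mia3, which exports procollagen from the endoplasmic reticulum, at 0.14 (edgeR adjusted p = 0.0322). Crtap, of the complex that hydroxylates a further class of prolines, stood at -0.20 (edgeR adjusted p = 0.0382). Of 14 basement membrane partners 1 passed, Npnt, an integrin ligand of alveolar basement membranes, at 0.27 (edgeR adjusted p = 0.0396). None of 10 processing and crosslinking genes, 13 matrix proteins that bind collagen and 8 receptors passed at day 27, and none of the 5 lists had a member that passed at days 1 and 7.

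Markers of cell types were counted in the same comparison at day 27, where 5.52% of all genes passed in either direction. Of 9 fibroblast markers 1 was higher, Pdgfra, at 0.23 (edgeR adjusted p = 0.0444). Of 5 lymphocyte markers all lay below 0 and 1 passed, with summed levels of 51.6 to 89.0 CPM in exposed lungs and 64.2 to 143 CPM in air lungs. Of 5 endothelial markers tested 1 was lower, as was 1 of 4 ciliated markers. The part of these in the Col4a4 difference was not tested.

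Between days 1 and 7 few collagens of air lungs passed the threshold. Of 35 members 2 were higher and 1 lower at day 7, by edgeR's quasi-likelihood test in 1 fit of the air libraries, where 2.09% of all genes were higher and 1.69% lower (3.78% in either direction). Col12a1 rose to 299 to 402 CPM at day 7 (median 356), against 236 to 304 CPM at day 1 (median 259.5). The ranges met in a narrow overlap, with a log2 difference of 0.39 ± 0.084 (adjusted p = 0.0186 by edgeR). Col4a6 rose by 0.32 ± 0.079 on the log2 scale (edgeR adjusted p = 0.0268), and Col7a1 fell by 0.36 ± 0.103 (edgeR adjusted p = 0.0497). With the closest pairs summed, 1 member passed, Col12a1, and Col4a6 and Col7a1 did not (edgeR adjusted p = 0.0577 and 0.0789). Col12a1 also passed with each library left out. The Col4a6 call was lost without air library 3 or 4 of day 1 and without air library 1 or 2 of day 7 (edgeR adjusted p of 0.0502 to 0.0618), and the Col7a1 call was kept in 9 of 24 such fits. The Col7a1 call was also lost with RLE factors (edgeR adjusted p = 0.0504) and without a filter on low counts (0.0602). Without passing, Col6a3 stood at 0.28 ± 0.083 (edgeR adjusted p = 0.0553) and Col1a1 at -0.22 ± 0.090 (edgeR adjusted p = 0.146).

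Between days 7 and 27 collagen expression fell widely in air lungs. Of 35 members tested, 23 were lower at day 27 and 0 higher, where 19% of all genes were lower and 19% higher. The median log2 fold change of the members was -0.48, against 0.02 over all genes. In 16 members every library of day 27 lay below every library of day 7, which was the case for 2.67% of all genes. The count of members passing, in either direction, was 23 or 24 under each alternative setting run and with each library left out in turn. A surrogate variable was not among the settings run between days. The day, the rats' age at that day and anything handled separately by day (each day has its own count table) cannot be told apart.

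All the abundant fibrillar genes fell. Col1a1 had 351 to 501 CPM at day 27 (median 438) and 753 to 1053.7 CPM at day 7 (median 911). The highest day 27 library stood well below the lowest day 7 library, and the log2 fold change was -1.02 ± 0.091, a level 50.7% lower by size (edgeR adjusted p = 4.66e-08). Col3a1 had 1747.1 to 2220.2 CPM at day 27 (median 2065.1) and 3331.4 to 3939.7 CPM at day 7 (median 3688.4), again without overlap. Its log2 difference was -0.85 ± 0.058 (adjusted p = 7.11e-10 by edgeR). Col1a2 fell by 0.98 ± 0.095 and Col5a1 by 0.84 ± 0.077 on the log2 scale, with edgeR adjusted p of 1.88e-07 and 4.66e-08. Col5a3 and Col5a2 also fell, by 0.71 and 0.48, so that 6 of 10 fibrillar members were lower. The 4 others (Col11a1, Col11a2, Col24a1 and Col27a1), which number among the low members of the set, stood between -0.58 and 0.08 and did not pass.

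The start region of Col1a2 is shown for the type I gene whose window was at hand, from 250 bases before to 50 after the RefSeq start of transcription. RefSeq places it on the plus strand of build GRCr8 at chr4:33518307-33518606. The capitals mark the letters of a CCAAT box, read here on the opposite strand, and of a TATA box. Both lie in the first part of the window, well before the RefSeq start.
Col1a2: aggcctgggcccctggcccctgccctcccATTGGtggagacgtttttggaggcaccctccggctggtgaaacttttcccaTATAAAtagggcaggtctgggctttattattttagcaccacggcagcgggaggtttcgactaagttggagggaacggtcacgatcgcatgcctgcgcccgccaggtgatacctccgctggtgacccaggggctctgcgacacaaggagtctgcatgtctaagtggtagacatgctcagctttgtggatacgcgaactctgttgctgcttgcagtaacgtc

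Of the 36 member names 30 had such a window, and 3 motifs were searched on both strands. A collagen name counted when any of its windows held the motif, while the share over all 33469 windows counts each window singly. This can raise the collagen share beside it. The TATA box, spelled TATAAA, was in 3 of the 30 collagen names, 10% against 14.2% of all windows. The CCAAT box, spelled as its name, was in 9, 30% against 37.5%. The GC box, spelled GGGCGG, was in 18, 60% against 33.1%, and in 5 of the 7 basement membrane names. Such a match is a description of the letters and not of a binding site.

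The basement membrane genes fell together at day 27. Col4a1 had 1217.8 to 1479.8 CPM at day 27 (median 1340.4) and 2012.9 to 2336.9 CPM at day 7 (median 2144.5). The groups were far apart, with a log2 difference of -0.67 ± 0.057 (adjusted p = 2e-08 by edgeR). Col4a2, its partner in the common type IV trimer, had 554 to 702 CPM at day 27 (median 600.1) and 900.5 to 1036.5 CPM at day 7 (median 977). Its log2 fold change of -0.66 ± 0.061 was nearly that of Col4a1 (edgeR adjusted p = 5.43e-08). Col4a6 fell by 0.73 ± 0.080 and Col4a5 by 0.63 ± 0.058 on the log2 scale (edgeR adjusted p = 8.32e-07 and 4.66e-08). Col4a4 fell less by size, by 0.41 ± 0.071, and Col18a1 by 0.17 ± 0.044, so that 6 of 7 were lower.

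Type IV genes lie head to head in pairs. In RefSeq on GRCr8, Col4a1 on the plus strand and Col4a2 on the minus strand of chromosome 16 start 77 bases apart, and their windows share 176 bases. The stretch at chr16:84885471-84885646 is given in the direction of Col4a1, with 2 GC boxes (1 of them on the opposite strand) and, between them, a CCAAT box of the opposite strand in capitals.
Col4a1 and Col4a2 shared stretch: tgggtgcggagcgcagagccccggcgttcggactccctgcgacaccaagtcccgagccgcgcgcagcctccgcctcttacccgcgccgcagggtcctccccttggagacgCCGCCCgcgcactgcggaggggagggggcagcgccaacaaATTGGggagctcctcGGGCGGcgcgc

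Col4a5 and Col4a6 start 1415 bases apart on chromosome X, also on opposite strands, and their windows share 0 bases. They are given to set beside the shared stretch, Col4a5 on the plus strand at chrX:109907109-109907408 and Col4a6 on the minus strand at chrX:109905895-109906194, each with 1 GC box in capitals.
Col4a5: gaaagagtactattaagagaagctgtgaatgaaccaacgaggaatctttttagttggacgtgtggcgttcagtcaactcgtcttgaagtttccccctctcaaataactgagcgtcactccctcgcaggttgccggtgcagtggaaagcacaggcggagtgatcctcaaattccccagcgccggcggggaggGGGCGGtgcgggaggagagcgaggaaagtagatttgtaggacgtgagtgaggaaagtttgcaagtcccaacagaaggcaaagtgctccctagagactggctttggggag
Col4a6: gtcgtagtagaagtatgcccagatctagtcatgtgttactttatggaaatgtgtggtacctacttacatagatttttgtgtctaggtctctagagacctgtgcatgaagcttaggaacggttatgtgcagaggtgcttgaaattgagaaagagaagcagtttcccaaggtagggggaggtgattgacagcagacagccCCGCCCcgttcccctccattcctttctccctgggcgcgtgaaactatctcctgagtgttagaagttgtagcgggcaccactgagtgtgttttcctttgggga
Col4a4 has the same arrangement with Col4a3, 413 bases apart on chromosome 9.

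**Figure D3:**
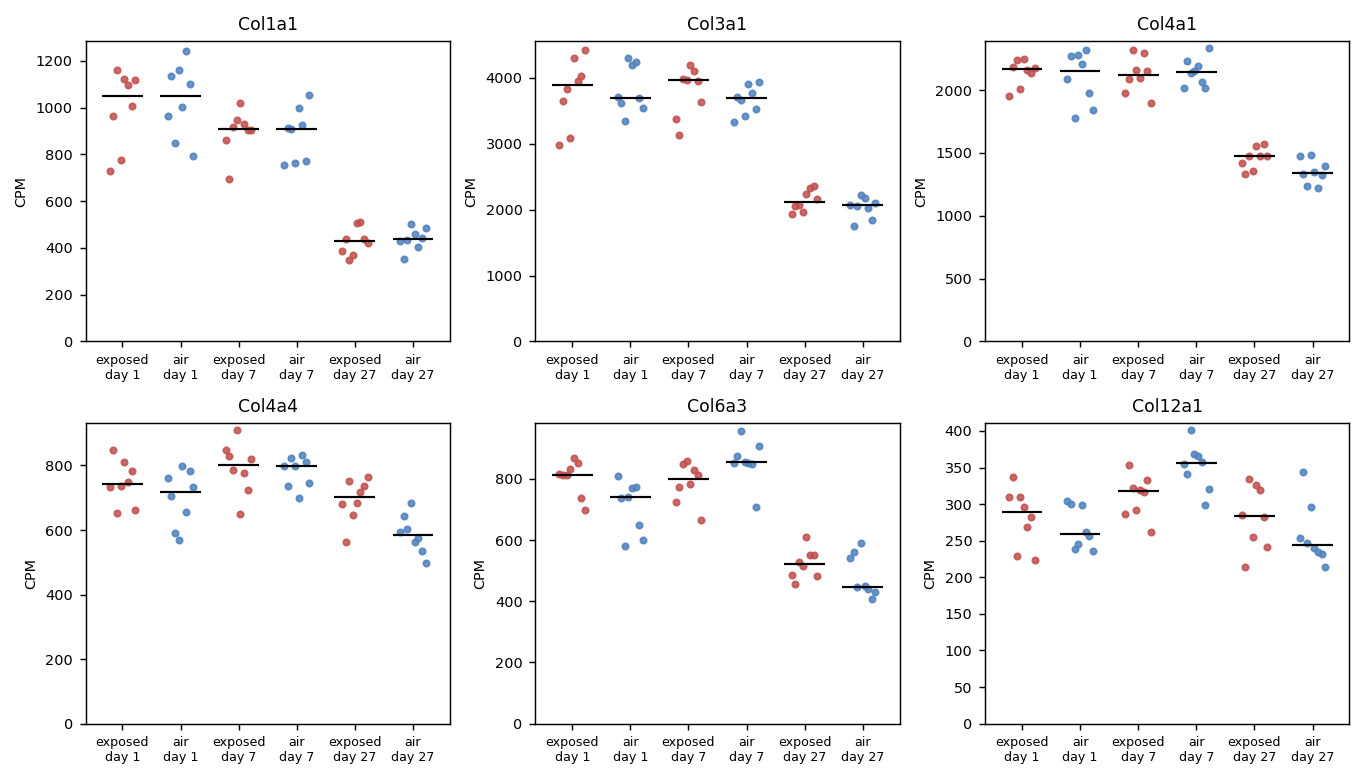
Levels of Col1a1, Col3a1, Col4a1, Col4a4, Col6a3 and Col12a1 in each of 48 libraries (y axis, CPM from 0, with its own scale in each panel), by group. Points are libraries and bars are group medians; for Col1a1 the air medians are 1051.7 CPM at day 1, 911 at day 7 and 438 at day 27.

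Among the other collagens 11 of 18 tested fell at day 27 in air lungs, and most of them belong to beaded filaments or bind to fibrils. Col6a3 had 408 to 591 CPM at day 27 (median 448) and 708 to 955 CPM at day 7 (median 854). There was no overlap, and the log2 difference was -0.83 ± 0.083 (adjusted p = 2.36e-07 by edgeR). Its trimer partners Col6a1 and Col6a2 fell by 0.50 ± 0.054 and 0.42 ± 0.057 on the log2 scale (edgeR adjusted p = 5.24e-07 and 1.19e-05). Col6a6 and Col6a5, which can take the place of Col6a3 in type VI, fell by 0.83 ± 0.131 and 0.40 ± 0.107, while Col6a4 stood at 0.30 ± 0.200 and did not pass. The fibril-binding Col14a1, Col12a1 and Col16a1 fell by 0.53, 0.45 and 0.31, as did Col8a1 of vessel walls by 0.64, Col7a1 by 0.34 and the more abundant Col23a1 identifier by 0.28.

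Some well-measured members did not pass. Col13a1, a transmembrane collagen of cell adhesions, had 182 to 198 CPM at day 27 (median 191) and 165 to 194 CPM at day 7 (median 180) in air lungs. Those ranges overlapped, with a log2 difference of 0.07 ± 0.052 (adjusted p = 0.322 by edgeR), and its median within-group coefficient of variation of 5.56% was the lowest of the members. Col17a1, of the junctions that hold basal epithelial cells to their basement membrane, stood at 0.06 ± 0.090, and Col8a2 at -0.08 ± 0.076. A p that misses the threshold does not show that these genes stayed the same, and whether they did was not tested.

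The exposed lungs, whose libraries are separate from the air libraries, were compared between the same days after the air result was known. Of 35 members 18 were lower at day 27 than at day 7 and 0 higher by edgeR's quasi-likelihood test, where 6.8% of all genes were lower and 6.64% higher. In 12 members the days did not overlap, which was the case for 1.08% of all genes. All 18 were among the 23 members that fell in air lungs, which makes 78.3% of the air list and 100% of the exposed list. How many of all genes lower in exposed lungs were also lower in air lungs was not counted. Exposed and air libraries of a day also share anything handled separately by day. Col1a1 had 348 to 510.1 CPM at day 27 (median 428) and 695 to 1021.7 CPM at day 7 (median 909.8) in exposed lungs. The days were again fully apart, with a log2 difference of -1.07 ± 0.099 (adjusted p = 1.09e-07 by edgeR). Col3a1 fell by 0.83 ± 0.074, Col4a1 by 0.54 ± 0.044 and Col6a3 by 0.59 ± 0.058 on the log2 scale (edgeR adjusted p = 2.95e-08, 5.55e-09 and 1.29e-07).

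In air lungs 5 members fell that did not pass in exposed lungs: Col12a1, Col16a1, Col6a5, Col8a1 and the Col23a1 identifier ENSRNOG00000003349. The largest difference among them was that of Col12a1, which stood at -0.14 ± 0.092 in exposed and -0.45 ± 0.084 in air lungs. The test of the difference itself, 0.31 ± 0.126 on the log2 scale, did not pass (edgeR adjusted p = 0.251), and neither did that of the other 4 (edgeR adjusted p of 0.460 to 0.782). Col4a4 passed narrowly in exposed lungs, at -0.20 ± 0.066 (edgeR adjusted p = 0.0496).

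**Figure D4:**
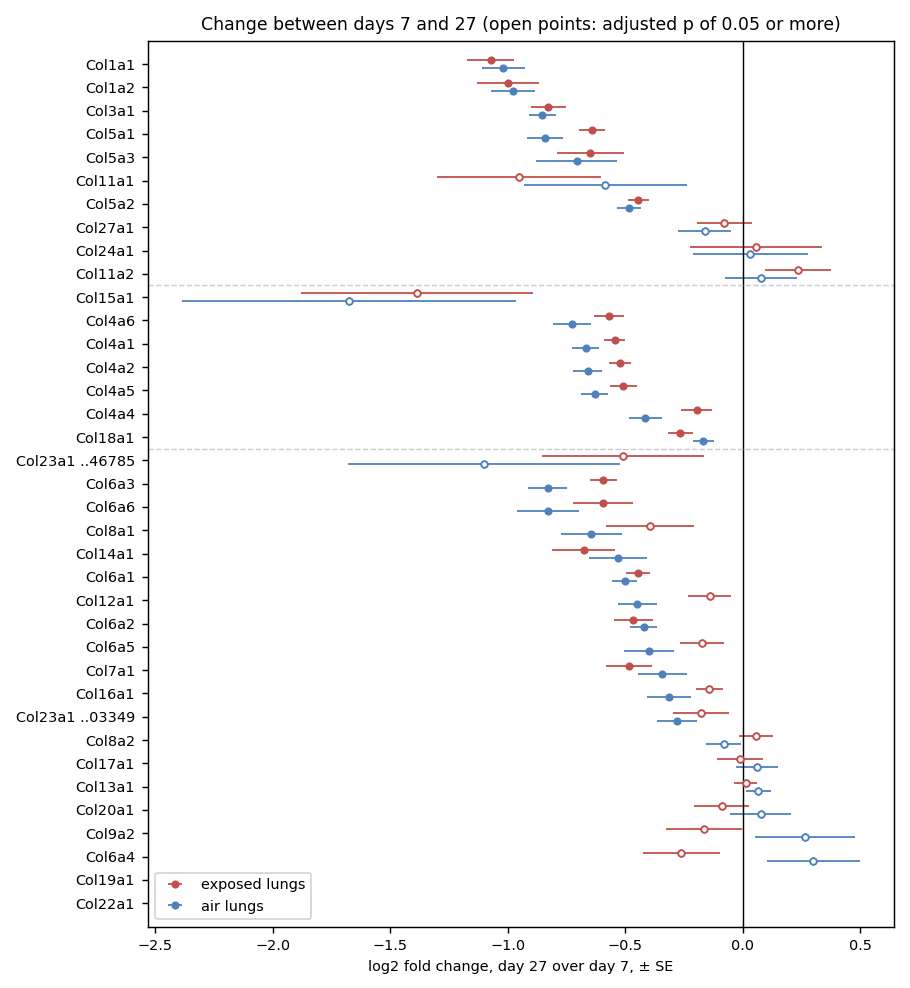
Log2 fold change ± SE of day 27 over day 7 for each collagen member (x axis, log2 scale), with exposed lungs in red above air lungs in blue. Filled points had an edgeR adjusted p under 0.05 (18 members in exposed and 23 in air lungs, all of them lower); dashed lines separate fibrillar, basement membrane and other members.

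Day 27 against day 1 of the air lungs gave 19 of 35 members lower and 0 higher, where 7.5% of all genes were lower and 8.04% higher. This comparison shares its libraries with the other air comparisons. Col1a1 stood at -1.23 ± 0.092 and Col3a1 at -0.92 ± 0.058 on the log2 scale (edgeR adjusted p = 4.31e-09 and 1.39e-10). Col7a1 stood at -0.70 ± 0.104 (edgeR adjusted p = 5.91e-05). Col12a1, which had risen by day 7, stood at -0.05 ± 0.084 (edgeR adjusted p = 0.717).

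Lists of genes that work with collagens were counted at day 27 against day 7 in air lungs as well, where 19% of all genes were lower and 19% higher. Of 21 hydroxylation and folding genes 4 fell and 2 rose, so that their share of lower genes was that of all genes. Those that fell included Plod2, a lysyl hydroxylase (-0.42, edgeR adjusted p = 0.000178), and Sparc, a collagen-binding secreted protein (-0.31, edgeR adjusted p = 0.000226). Of 11 procollagen processing and crosslinking genes 7 fell, led by Adamts2, which removes a propeptide (-0.80, edgeR adjusted p = 1.88e-07), and Loxl2, a crosslinking oxidase (-0.98, edgeR adjusted p = 1.19e-05). Of 13 matrix genes that bind collagen 11 fell, including Fbn1 of elastic microfibrils (-0.98) and Eln, elastin (-0.97). Of 14 basement membrane partners 11 fell, among them Nid1, which links laminin to type IV collagen (-0.76), and the laminin chain Lamb1 (-0.49), and of 8 receptors and uptake genes 5 fell, including Mrc2 (-0.32) and Itgb1 (-0.17), with values as log2 fold changes.

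Some cell type markers also differed between these days in air lungs, where 19% of all genes were lower and 19% higher. Of 9 fibroblast markers 1 was higher and 2 lower, and their summed level was 1843.5 to 2210.5 CPM at day 27 and 2098.5 to 2362.9 CPM at day 7. The most abundant of the 9 was Fn1, at a mean of 1216.6 CPM over the 48 libraries, so it weighs most in that sum. Fn1, Dcn and Lum were also on the list of matrix genes that bind collagen. Of 5 pericyte markers 3 were lower, with sums of 388 to 509 CPM at day 27 and 529 to 662 CPM at day 7. Smooth muscle markers lay below 0 in 7 of 7, with 1 passing and sums of 688 to 1342.1 CPM at day 27 and 1225 to 1429.6 CPM at day 7. Endothelial markers were lower in 3 of 5, with sums of 3747.9 to 4293.3 CPM at day 27 and 4060 to 4555.1 CPM at day 7. Alveolar type 1 markers were higher in 4 of 5 and lymphocyte markers in 5 of 5, and ciliated markers split, with Tppp3 at 0.32 and Dnah5 at -1.31 on the log2 scale. Their part in the collagen difference was not tested.

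Chains that share a trimer, or genes that share a tissue fibre, could change in step or apart, and 6 ratios of 2 members were compared within libraries. Over 6 comparisons this made 36 two-sided exact permutation tests with Benjamini-Hochberg adjustment over the 36, of which 7 passed. The smallest p that 8 against 8 libraries can give is 0.000155. The ratios were added after the data had been seen. For Col4a2 over Col4a1 the mean log2 ratio in air lungs was -1.13 ± 0.078 at day 27 and -1.14 ± 0.048 at day 7 (SD, n = 8 each), although both genes had fallen. The difference was 0.01 (exact permutation, adjusted p = 0.871). Col1a2 over Col1a1, the type I chains, differed by 0.05 between the same days (exact permutation adjusted p = 0.768). Against day 1 of air lungs it was higher by 0.27 at day 7 and by 0.32 at day 27. Neither passed (exact permutation adjusted p = 0.0683 and 0.0584).

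Other ratios shifted with the days of air lungs. Col5a2 over Col5a1 had a mean log2 ratio of 2.01 ± 0.079 at day 27 and 1.66 ± 0.107 at day 7 (SD, n = 8 each), with no overlap between the days (difference 0.36, exact permutation adjusted p = 0.00559). Col3a1 over Col1a1, which sets type III beside type I, stood at 2.22 ± 0.098 at day 27 and 2.05 ± 0.103 at day 7 (difference 0.16, exact permutation adjusted p = 0.0432). With the closest pairs of libraries averaged the last difference did not pass (0.0689). Col6a3 over Col6a1 went both ways: it was 0.69 ± 0.090 at day 7 and 0.43 ± 0.121 at day 1 (difference 0.26, exact permutation adjusted p = 0.00559), and 0.35 ± 0.142 at day 27 against that day 7 value (difference -0.33, exact permutation adjusted p = 0.00559).

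Col4a6 over Col4a5 was higher at day 7 than at day 1 of air lungs by 0.20 (exact permutation adjusted p = 0.0336, and 0.0634 with the closest pairs averaged). Against day 1, day 27 had higher ratios of Col3a1 over Col1a1 by 0.31 and of Col5a2 over Col5a1 by 0.27 (exact permutation adjusted p = 0.00783 and 0.00559). Exposed and air lungs did not differ past the threshold in any of the 6 ratios at any of the 3 days. The closest was Col6a3 over Col6a1 at day 7, at 0.58 ± 0.062 in exposed and 0.69 ± 0.090 in air lungs (SD, n = 8 each, exact permutation adjusted p = 0.0538).

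**Figure D5:**
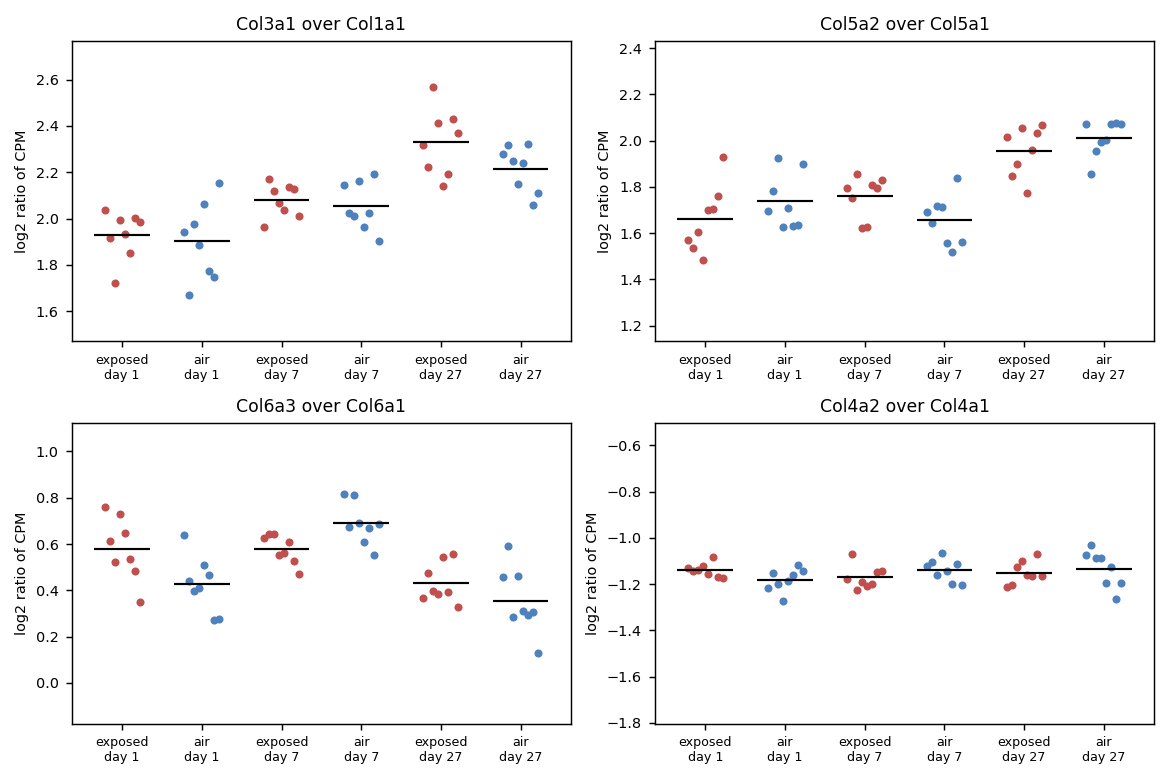
Log2 ratio of CPM within each library (y axis, log2 scale, same span in each panel) for Col3a1 over Col1a1, Col5a2 over Col5a1, Col6a3 over Col6a1 and Col4a2 over Col4a1, by group. Points are libraries and bars are group means; Col5a2 over Col5a1 has means of 2.01 in air lungs of day 27 and 1.66 in air lungs of day 7, while Col4a2 over Col4a1 stays near -1.13 and -1.14.

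Within groups, libraries with more of a chain also had more of its partner. Deviations of log2 CPM from the group mean were correlated for 6 pairs of genes over 44 libraries (closest pairs averaged), with 100000 permutations within groups. Col4a1 and Col4a2 had a Pearson r of 0.87 and a Spearman rho of 0.85, and r was 0.842 without the 2 libraries farthest out. Col1a1 and Col3a1 followed with an r of 0.80 and a rho of 0.74, and Col4a5 and Col4a6 with an r of 0.72 and a rho of 0.69. Their permutation p of 1e-05, 2e-05 adjusted over the 6 pairs, is the smallest that these permutations can give.

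The pairing of type I chains was looser than that of type IV chains by value, and their difference was not tested. Col1a1 and Col1a2 had an r of 0.57 and a rho of 0.61 (permutation adjusted p = 0.000168 and 6e-05), below the r of 0.61 and rho of 0.62 between Col1a1 and Col4a1, which belong to different classes (permutation adjusted p = 0.00015 and 0.000108). Without the 2 farthest libraries these r were 0.528 and 0.537, and that of Col1a1 and Col3a1 was 0.761. Genes within a library share its piece of tissue and its depth. Col2a1 and Acan had an r of 0.08 and a rho of 0.27 (permutation adjusted p = 0.667 and 0.0845), where both were near 0 counts in most libraries.

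Members differed in how much they varied within a group. After Col13a1, the lowest median coefficient of variation was that of Col4a1, at 6.25%, and the highest were those of Col22a1, at 54.6%, and Col15a1, at 54.5%. Col15a1, a proteoglycan of the basement membrane zone, was listed at 0 in 6 libraries and at 4.94 to 67.1 CPM in the other 42. The 6 were 1 exposed and 1 air library of day 1, and 1 exposed and 3 air libraries of day 27, while at day 7 it ranged from 39.4 to 67.1 CPM in exposed and from 20.5 to 48.1 CPM in air lungs. Its log2 fold change in air lungs was -1.68 ± 0.710 for day 27 over day 7, the largest by size among the members tested, and did not pass (edgeR adjusted p = 0.0674). The Col23a1 identifier ENSRNOG00000046785 was likewise listed at 0 in 4 libraries, and reached 8.78 CPM in another.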

How the data were processed

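Lung RNA was sequenced from 8 exposed and 8 air rats at each of days 1, 7 and 27. Per the labels' protocols, polyadenylated RNA was made into strand-specific libraries. The authors deposited expected counts, estimates per gene that need not be whole, 1 table per day; the submitters' processing notes name the rat build Rnor_6.0, the aligner STAR 2.6.1d and the quantifier Salmon 1.10.1, with Trim Galore 0.6.7 on cutadapt 3.4 and bcl2fastq 2.19 before them. Settings are not given in the sources used here. Groups came from the labels.

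Of the values 5.58% were not whole (tolerance 1e-06), and all were rounded. EdgeR 4.0.16 in R 4.3.3 (TMM, filterByExpr, robust quasi-likelihood) tested each day by itself, the air libraries in 1 fit, the exposed libraries in another, and differences between days in 1 fit of all 48, with Benjamini-Hochberg adjustment over all genes and a threshold of 0.05. SE is the log2 fold change divided by the root of F. CPM are not divided by gene length, so levels are compared within a gene only. Totals of 9445687 to 14400337 counts limit genes near 1 CPM.

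For exposed against air at each day, and for air lungs between successive days, members were named by a rule per comparison and class. Named were those that passed (the 4 with the smallest p where more did), or the 1 with the smallest p. Col1a1, Col3a1 and Col4a1 were also named against air at each day. In the other comparisons between days and in the differences of exposure effects, only some of the members picked by that rule were named. Members named there, and members named beside the rule elsewhere, were chosen after their values were seen. Up to 2 passing genes per pathway list were named by p, and others likewise after their values were seen. Members, classes and lists were chosen with earlier results of these data known. The exposed comparison between days and the ratios were added after seeing the data. Of the correlations, Col4a5 and Col4a6 took the place of a planned pair, Col4a3 and Col4a4.

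Alternatives were DESeq2 1.42.0, limma-voom (limma 3.58.1), RLE factors, no filter, a minimum mean of 1 CPM, all 48 libraries in 1 fit, closest pairs summed, each library left out, and plain totals for CPM. A further alternative, for exposed against air only, was 1 surrogate variable (sva 3.50.0). Pairs of libraries were set side by side on the 13486 genes averaging 20 or more counts. The steps were also run on simulated counts, whose outcome is not reported here. Motifs were searched in RefSeq windows of GRCr8, another build than that of the counts.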

Additional observations from a re-analysis of the deposited data

Results flagged for a closer look

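Of 150 groups of 8 libraries looked at, 4 had a library set apart at 1 end, with a gap to the nearest other library over 0.526 of the group's range. Chance gives about 1 in 20, which would be 7.5 of the 150. Col6a3 in air lungs of day 7 was lowest in library 7, at 708 CPM, with the next at 849.9 CPM and the highest at 955 CPM. Col14a1 in air lungs of day 27 was lowest in library 7, at 24.5 CPM, with the next at 37.4 CPM. Col24a1 in air lungs of day 27 was lowest in library 2, at 0.395 CPM, with the next at 1.23 CPM. Col27a1 in exposed lungs of day 27 was highest in library 4, at 15.6 CPM, with the next at 12.4 CPM.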

How the results depend on the processing

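The count of collagens passing at day 27 against day 7, in either direction, was 23 or 24 in air lungs and 17 to 19 in exposed lungs. That held under each alternative run between days and with each library left out. The surrogate variable was fitted for exposed against air only. Against air, 0 members passed at days 1 and 7 under every alternative and with each library left out. At day 27 the 1 member became 0 without a filter, with the closest pairs summed and with 1 surrogate variable, and 0 to 1 with a library left out. Over all genes the day 27 comparison called 783 genes, and 9 without exposed library 3. For air day 7 against day 1 the 3 members became 1 with the closest pairs summed, and 1 to 4 with a library left out. The signs of some log2 fold changes of exposed over air lungs near 0 turned, none of them past the threshold. With the closest pairs summed, Col1a1 stood at 0.00124 at day 1 and -0.0140 at day 7, and Col3a1 at 0.0227 at day 1. With 1 surrogate variable, Col3a1 stood at 0.0181 at day 1 and Col1a1 at 0.00443 at day 27. With a library left out, Col1a1 ranged from -0.0951 to 0.00625 at day 1, from -0.0131 to 0.0643 at day 7 and from -0.0746 to 0.00402 at day 27. Col3a1 then ranged from -0.0557 to 0.0258 at day 1, and Col4a1 from -0.00327 to 0.0534 at day 1 and from -0.0324 to 0.0102 at day 7. The cause was not tested. No paired analysis was possible because the animal numbers in the labels differ between groups. Members near 1 CPM rest on few counts. With plain library totals 37 identifiers also reached the mean of 0.5 CPM.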
